A study of Mus musculus with 12 samples.

Results

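Integrins are cell surface receptors made of an alpha and a beta subunit, and the alpha subunit largely sets which ligand is bound. They link the actin cytoskeleton to extracellular matrix or to other cells, and osteoclasts rely on them to attach to bone and to form the actin ring under which bone is resorbed. In leukocytes the partners of the beta subunit Itgb2 carry out firm adhesion, uptake of complement-coated particles and contact with T cells. The 10 integrin alpha subunit genes described here, Itgam, Itgax, Itgal, Itgav, Itga4, Itga5, Itga6, Itga9, Itga2 and Itgae, were taken by name from the 46072 genes of the authors' deposited table, and all 10 had a value and a p-value in each of the 3 comparisons.

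The study measured RNA by sequencing in 3 myeloid cell types grown from bone marrow of mice of the strain C57BL/6J, which were 6 to 8 weeks old. Osteoclasts were grown in M-CSF at 30 ng/ml with RANKL at 50 ng/ml, macrophages in M-CSF at 30 ng/ml, and immature dendritic cells in GM-CSF at 20 ng/ml, for 8 to 10 days. The first 2 had passed 5 days in M-CSF at 100 ng/ml, a step not described for dendritic cells. All mice were of the same strain, and the labels name no genetic alteration. Osteoclast wells were treated with Accutase to take off cells with a single nucleus. No cell sorting is described for any culture. Each cell type had 4 libraries, from separate marrow extractions, with the 3 cell types of an experiment derived from the same mouse.

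The authors' mean of a gene in a cell type is its normalised read count, scaled by size factors and averaged over libraries. These means summed to 2.42e+07 in osteoclasts against 2.50e+07 in macrophages and 2.77e+07 in dendritic cells. These are totals after scaling and not the depth of single libraries. Where a mean was 1500 or less, the whole reads of the single libraries were recovered from the digits of the mean. These libraries are called a to d within each cell type, in order of size factor, and their replicate numbers are unknown. In the authors' deposited table most markers of each label, but not all, were highest under that label. Ctsk, the collagen-degrading protease of osteoclasts, had a mean of 87806 in osteoclasts against 137 in macrophages and 1472 in dendritic cells, the macrophage antigen Adgre1 had 42421 in macrophages, 26576 in osteoclasts and 7293 in dendritic cells, and the chemokine Ccl17 had a mean of 69230 in dendritic cells against 64.2 in osteoclasts and 64.9 in macrophages. All 7 dendritic cell markers were highest in dendritic cells. Of the 7 osteoclast markers the fusion genes Dcstamp (4231 in osteoclasts, 7666 in dendritic cells) and Ocstamp (1589 and 2583) were highest in dendritic cells, and of the 7 macrophage markers Fcgr1 was (1812 in macrophages, 2944 in dendritic cells). Markers of other cells were present in the dendritic cell cultures. Over 9 neutrophil markers the authors' means summed to 14761 there, against 77.9 in osteoclasts and 92.7 in macrophages, and no neutrophil marker was at 0 in dendritic cells. Over 6 eosinophil markers the sums were 9676, 162 and 57.1, and over 8 mast cell and basophil markers 970, 13.7 and 11.9, in the same order. Over 7 stromal markers the sums were 964, mostly Lepr at 889, then 304 in osteoclasts, mostly Dcn at 283, and 18.7 in macrophages. The 7 osteoclast markers summed to 19242 in dendritic cells and 851 in macrophages. The part of these other cells in any integrin level was not tested, and in bulk RNA fewer cells of a type and less RNA per cell cannot be told apart.

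Per kilobase of exon, the scale on which genes of different length can be set side by side, Itgam had the highest level of the 10 in all 3 cell types. Its authors' mean per kilobase was 6152 in osteoclasts against 7076 in macrophages and 13693 in dendritic cells, which was 52.6%, 56.5% and 51.1% of the sum over the 10 genes. The gene next in order was Itga5 in osteoclasts, at 2025 per kilobase, and in macrophages, at 1328, but Itgax in dendritic cells, at 10633 or 39.6% of the sum. In osteoclasts Itgav (910), Itgal (908) and Itgax (837) followed, then Itga6 (436) and Itga4 (373), all per kilobase. The lowest 3 in osteoclasts were Itga9 at 33.8, Itga2 at 21.9 and Itgae at 2.18. In macrophages Itgal (1271), Itga6 (1100), Itgav (775), Itga4 (558), Itgax (263) and Itga9 (146) followed Itga5, and Itgae at 1.33 and Itga2 at 0.0683 were lowest. In dendritic cells Itgal (1062) and Itga5 (1021) followed Itgax, and Itgav (154), Itga4 (120), Itga6 (72.5) and Itgae (62.3) were lower, with Itga2 at 0.825 and Itga9 at 0.431 last. With the length of the longest transcript in place of all exons, 28 of 30 ranks were kept, and in macrophages Itga5 and Itga6 exchanged ranks 2 and 4. The spread between libraries is not known for the genes with high means, so the order within a cell type is a description.

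**Figure D1:**
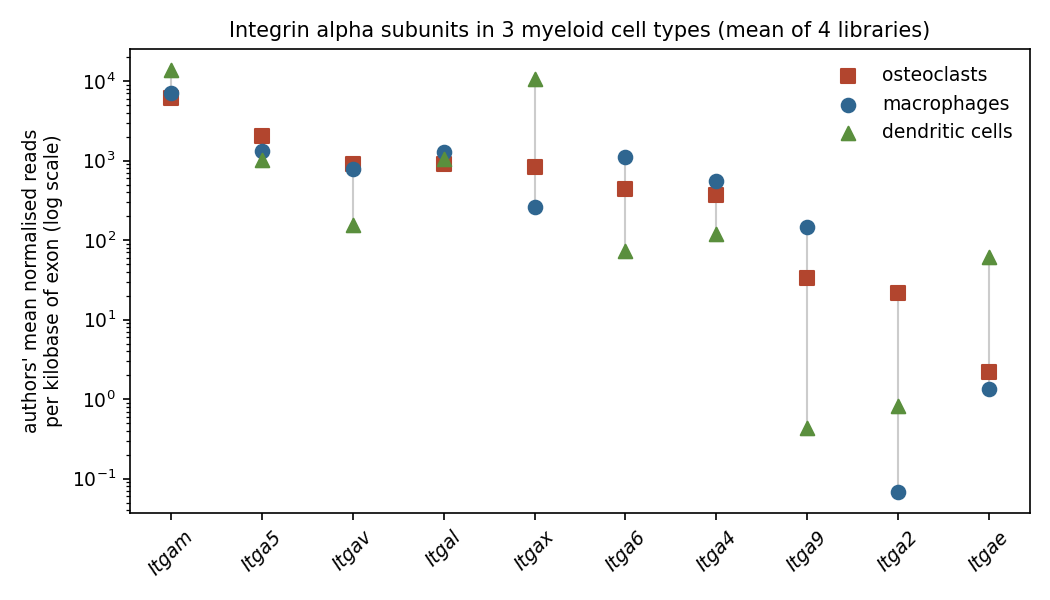
Authors' mean normalised reads per kilobase of exon (log scale) of the 10 integrin alpha subunit genes in osteoclasts, macrophages and dendritic cells, each point a mean over 4 libraries and a grey line joining the 3 points of a gene. Itgam lies at 6152 or above in every cell type, while Itgax, Itga9, Itga2 and Itgae differ most between the cell types.

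Against macrophages, osteoclasts were higher in Itga2 and Itgax and lower in Itga9, Itga6 and Itga4, by the authors' adjusted p under 0.05. The other 5, Itgav, Itgam, Itgal, Itga5 and Itgae, were not called. Of all 17822 genes with an adjusted p in this comparison 29.3% were called, 14.5% higher and 14.7% lower, against 5 of these 10. The median log2 fold change of the 10 was 0.01, beside -0.03 over all genes tested, and the median size of the change without its sign was 0.60 beside 0.39. With a 2-fold limit added, 4 of the 10 and 12.1% of all genes were called.

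Against dendritic cells, osteoclasts were higher in Itga9, Itga2, Itga6, Itgav, Itga4 and Itga5 and lower in Itgae, Itgax and Itgam in the authors' deposited table, and only Itgal was not called among the 10. Over all 21217 genes tested 36.9% were called, 16.8% higher and 20.1% lower. The median log2 fold change of the 10 was 1.30, beside -0.05 over all genes, and the median size was 2.54 beside 0.54. With the 2-fold limit 8 of the 10 and 20.5% of all genes were called.

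Dendritic cells against macrophages gave 4 higher genes, Itgax, Itgae, Itga2 and Itgam, and 4 lower ones, Itga9, Itga6, Itgav and Itga4, with Itgal and Itga5 not called. Of the 20730 genes the authors' deposited table tested, 36.7% were called, 20.3% higher and 16.4% lower. The median log2 fold change of the 10 was -0.31, beside 0.05 over all genes, and the median size was 2.41 beside 0.52. With the 2-fold limit 7 of the 10 and 20.2% of all genes were called. The comparisons share libraries, since each cell type enters a pair of them, and are therefore not independent of each other.

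**Figure D2:**
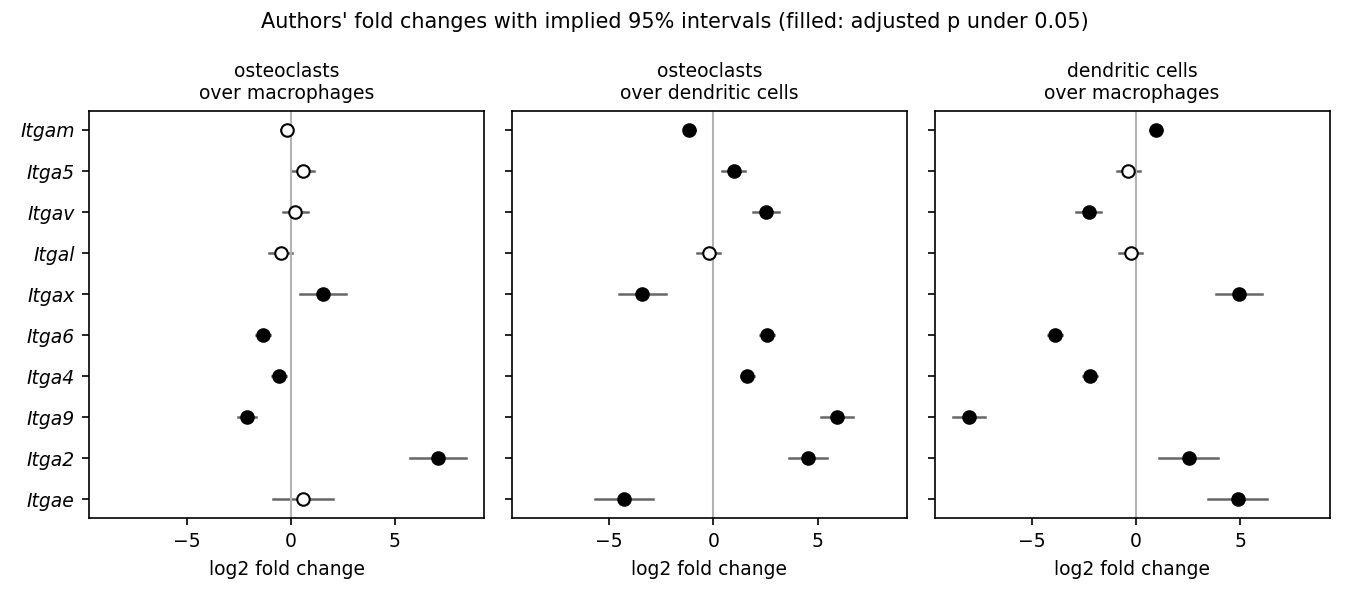
The authors' log2 fold changes of the 10 genes in the 3 comparisons, with 95% intervals implied by their p-values. Filled points have an adjusted p under 0.05. They number 5 for osteoclasts over macrophages, 9 for osteoclasts over dendritic cells and 8 for dendritic cells over macrophages.

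Itgam, Itgax and Itgal pair with Itgb2 and are the leukocyte integrins. Itgam encodes CD11b, the alpha subunit of complement receptor Mac-1, and lies on chromosome 7 at chr7:128062640-128118491 of GRCm38 on the plus strand. Its authors' mean was 30908 in osteoclasts against 35550 in macrophages and 68792 in dendritic cells. Its deposited fold change between osteoclasts and macrophages was -0.20 ± 0.15 on the log2 scale (SE implied by the p-value, adjusted p 0.326, 4 libraries per cell type), and the level in dendritic cells was 2.22-fold that of osteoclasts (log2 -1.15 ± 0.15 for osteoclasts over dendritic cells, adjusted p 3.78e-14) and 1.93-fold that of macrophages (log2 0.95 ± 0.15, adjusted p 6.55e-10). So osteoclasts and macrophages did not differ beyond their error, and dendritic cells stood above both. Of the 50-base windows of its longest transcript 72.4% also occur in Gm49368, a gene model on the same strand that overlaps its exons in GENCODE M21. No identifier of the authors' deposited table matched that model, so how reads in the shared stretch were assigned there was not tested.

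Itgax encodes CD11c, the surface protein most used to recognise mouse dendritic cells, and lies downstream of Itgam at chr7:128129547-128150657 on the plus strand. Its mean in the authors' deposited table was 4019 in osteoclasts against 1264 in macrophages and 51071 in dendritic cells. The deposited fold change was 30.7-fold for dendritic cells over macrophages (log2 4.94 ± 0.57, adjusted p 4.88e-17) and 10.6-fold for dendritic cells over osteoclasts (log2 -3.41 ± 0.57 for osteoclasts over dendritic cells, adjusted p 1.57e-08). It was also higher in osteoclasts than in macrophages, 2.90-fold in the authors' deposited table (log2 1.53 ± 0.57, adjusted p 0.0267), a call that is lost at an adjusted p limit of 0.01. The 3 cell types thus stood in the order dendritic cells, osteoclasts, macrophages, with each step called.

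The macrophage value of Itgax rests on unequal libraries. Recovered normalised reads in macrophages were 526 in library a, 2950 in b, 595 in c and 985 in d. Library b was the highest and library d the next. Without library b the macrophage mean was 702, and the ratio of the osteoclast mean to the macrophage mean went from 3.18 to 5.73, that of the dendritic cell mean from 40.4 to 72.8. The same library b was highest for Itgb7 (667, 2775, 580 and 995 in a to d) and for the MHC class II gene H2-Ab1 (121, 1097, 142 and 591). The dendritic cell markers Ccl17 (63.9, 63.3, 63.3 and 69.0) and Zbtb46 (17.7, 11.7, 14.6 and 23.0) were not higher in it. Over the 6 of 7 dendritic cell markers with recovered reads, the sums in macrophages were 275, 1260, 332 and 909, mostly H2-Ab1 in b and d. Irf4 was highest in library d (70.8, 85.7, 112 and 224 in a to d). Of the osteoclast markers, Dcstamp (24.6, 384, 35.1 and 149) and Ocstamp (10.8, 31.2, 7.79 and 7.67) were highest in library b, but Ctsk, Acp5, Mmp9, Calcr and Oscar were not. The part of these markers in the Itgax level was not tested. Itgax shares 9.61% of its 50-base windows with Itgad, whose authors' mean was 9.19 in dendritic cells, 1.24 in osteoclasts and 1.71 in macrophages.

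Itgal encodes CD11a, the alpha subunit of LFA-1, which binds the ICAM proteins, and lies at chr7:127296260-127335138 on the plus strand. Its authors' mean was 5964 in osteoclasts against 8350 in macrophages and 6977 in dendritic cells. It was the only one of the 10 that was called in no comparison of the authors' deposited table. The log2 fold changes were -0.48 ± 0.28 for osteoclasts over macrophages (95% interval -1.02 to 0.06, adjusted p 0.198), -0.22 ± 0.28 for osteoclasts over dendritic cells (-0.77 to 0.32, adjusted p 0.589) and -0.25 ± 0.28 for dendritic cells over macrophages (-0.80 to 0.29, adjusted p 0.533). Each interval holds 0 and is wide, so these p-values do not show that the 3 cell types held the same level.

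The promoters of Itgam and Itgax are shown because these genes share a beta partner and lie side by side on chromosome 7, and that of Itga2 because its fold change between osteoclasts and macrophages was the largest of the 10. RefSeq promoters (GRCm38.p6) matched 7 of the 10 symbols, Itgam, Itgax, Itgav, Itga4, Itga5, Itga9 and Itga2. The Itga9 window, chr9:118711442-118711691, lies inside the gene as placed by GENCODE M21, so the bases before the GENCODE start of Itga9 were not searched. Each sequence below holds the 250 bases before the RefSeq transcript start, 5′ to 3′ on the strand of the gene, with capitals marking matches on either strand to any of the motifs searched. The core of the PU.1 motif was searched as GAGGAA. The core of the NFAT motif was searched as GGAAAA. For AP-1 the letters were TGANTCA, with any base at N. For the GC box they were GGGCGG, and the TATA box was searched as TATAAA. The windows lie at chr7:128062390-128062639 (plus strand, Itgam), chr7:128129300-128129549 (plus strand, Itgax) and chr13:114932101-114932350 (minus strand, Itga2).
Itgam: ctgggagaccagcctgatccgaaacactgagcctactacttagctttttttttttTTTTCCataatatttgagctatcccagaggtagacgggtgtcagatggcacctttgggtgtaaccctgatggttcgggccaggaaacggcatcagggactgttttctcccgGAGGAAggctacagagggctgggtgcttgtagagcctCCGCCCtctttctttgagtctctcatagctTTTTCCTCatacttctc
Itgax: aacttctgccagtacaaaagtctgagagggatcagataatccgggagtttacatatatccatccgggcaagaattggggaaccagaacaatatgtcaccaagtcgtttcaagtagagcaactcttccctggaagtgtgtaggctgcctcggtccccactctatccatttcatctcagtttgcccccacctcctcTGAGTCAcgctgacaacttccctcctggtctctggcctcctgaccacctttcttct
Itga2: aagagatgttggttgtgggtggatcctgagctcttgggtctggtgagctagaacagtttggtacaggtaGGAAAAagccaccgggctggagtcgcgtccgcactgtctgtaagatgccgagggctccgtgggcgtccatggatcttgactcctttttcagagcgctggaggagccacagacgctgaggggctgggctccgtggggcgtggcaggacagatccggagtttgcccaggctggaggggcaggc

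PU.1 is the master regulator of myeloid cells, and NFATc1 and AP-1 act downstream of RANKL in osteoclast formation. The Itgam window holds 2 PU.1 core matches, the nearest starting 15 bases before the transcript start, along with 2 NFAT core matches and 1 GC box. The PU.1 and NFAT matches nearest to the start overlap each other, sharing 4 bases. The Itgax window holds 1 AP-1 match, which starts at base -56, and none of the others. In the Itga2 window there is 1 NFAT core match, starting at base -181. Among the 7 windows the PU.1 core was in 3 (Itgam, Itgav and Itga5) against 23.1% of 27025 promoters, the NFAT core in 3 (Itgam, Itga2 and Itga5) against 20.6%, AP-1 in 1 (Itgax) against 6.87%, the GC box in 3 (Itgam, Itga4 and Itga5) against 32.9%, and the TATA box in 0 against 12.97%. A match describes letters only, and binding was not measured.

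Itgav encodes the alpha subunit of the vitronectin receptor, the integrin of the osteoclast's sealing zone when paired with Itgb3, and lies at chr2:83724397-83806916 on the plus strand. Its authors' mean was 9778 in osteoclasts against 8323 in macrophages and 1651 in dendritic cells. Osteoclasts and macrophages did not differ beyond the error in the authors' deposited table (log2 0.23 ± 0.31, adjusted p 0.655), with a 95% interval from -0.39 to 0.84. Both were above dendritic cells, osteoclasts by 5.69-fold (log2 2.51 ± 0.32, adjusted p 2.52e-14) and macrophages by 4.86-fold (log2 -2.28 ± 0.32 for dendritic cells over macrophages, adjusted p 5.30e-12). A gene model on the opposite strand, Gm13684, overlaps its exons with authors' means of at most 6.49, and whether the counting used strand is not given in the sources here.

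Itgb3, its beta partner, was called between osteoclasts and macrophages where Itgav was not, and the difference between the changes of these 2 genes was not tested. The mean of Itgb3 in the authors' deposited table was 6965 in osteoclasts against 351 in macrophages and 487 in dendritic cells, 18.7-fold higher in osteoclasts than in macrophages (log2 4.23 ± 0.30, adjusted p 2.01e-41) and 13.6-fold higher than in dendritic cells (log2 3.76 ± 0.30, adjusted p 1.00e-33). Recovered normalised reads of Itgb3 ran from 286 to 391 over the macrophage libraries and from 286 to 825 over the dendritic cell libraries, so these 2 groups overlapped. Itgb5, another partner of Itgav, was highest in macrophages, with authors' means of 6300 in osteoclasts against 12505 in macrophages and 2442 in dendritic cells, and was lower in osteoclasts than in macrophages (log2 -0.97 ± 0.29, adjusted p 0.00462). Per kilobase, Itgav was at 0.771 of Itgb3 in osteoclasts, 13.04 times Itgb3 in macrophages and 1.86 times in dendritic cells. The same ratio to Itgb5 was 0.513, 0.220 and 0.224. Between macrophages and osteoclasts, then, Itgav was not called, Itgb3 was higher in osteoclasts and Itgb5 was higher in macrophages.

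**Figure D3:**
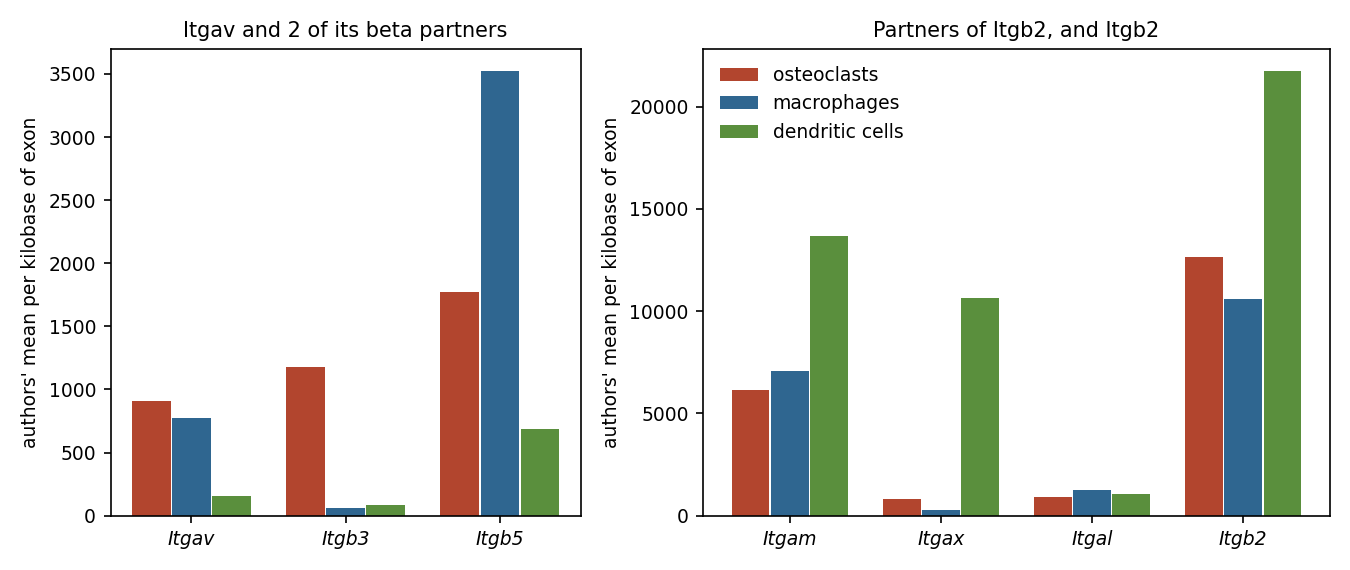
Authors' means per kilobase of exon in the 3 cell types, for Itgav with its partners Itgb3 and Itgb5 (left) and for Itgam, Itgax and Itgal with their shared partner Itgb2 (right). Itgav is at 910 in osteoclasts and 775 in macrophages, while Itgb3 is at 1180 in osteoclasts and 59.4 in macrophages, and Itgax and Itgb2 are highest in dendritic cells. The vertical scales of the panels differ, and the table gives no spread for these means.

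Itgb2, the partner of Itgam, Itgax and Itgal, stood at 38597 in osteoclasts, compared with 32385 in macrophages and 66307 in dendritic cells, and was higher in dendritic cells than in macrophages (log2 1.03 ± 0.17, adjusted p 2.30e-08). The 3 alpha subunits together stood at 0.624 of Itgb2 per kilobase in osteoclasts, compared with 0.811 in macrophages and 1.17 in dendritic cells. Itgb1, which pairs with Itga2, Itga4, Itga5, Itga6, Itga9 and Itgav, had authors' means of 22019, 24561 and 16297 in osteoclasts, macrophages and dendritic cells, and was lower in dendritic cells than in macrophages (log2 -0.59 ± 0.12, adjusted p 9.60e-06). Its fold change between osteoclasts and macrophages was not called in the authors' deposited table (log2 -0.16 ± 0.12, adjusted p 0.371). The 5 partners of Itgb1 other than Itgav summed to 0.536, 0.520 and 0.304 of it per kilobase in the same order.

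All 5 of these genes were lower in dendritic cells than in osteoclasts in the authors' deposited table. Itga5, the fibronectin receptor, lies at chr15:103344286-103366763 on the minus strand. Its authors' mean was 9988 in osteoclasts against 6549 in macrophages and 5037 in dendritic cells. Osteoclasts exceeded dendritic cells (log2 0.97 ± 0.27, adjusted p 0.00169), and its difference between osteoclasts and macrophages missed the threshold (log2 0.60 ± 0.27, adjusted p 0.0869). Dendritic cells and macrophages were also not called apart for Itga5 (log2 -0.37 ± 0.27, adjusted p 0.316).

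Itga4, the alpha subunit of VLA-4, which binds Vcam1 and fibronectin, lies at chr2:79255426-79333123 on the plus strand. Its authors' mean was 5220 in osteoclasts against 7799 in macrophages and 1674 in dendritic cells. By the deposited fold change it was 1.49-fold lower in osteoclasts than in macrophages (log2 -0.58 ± 0.17, adjusted p 0.00316), under the 2-fold limit, and exceeded its dendritic cell level 3.10-fold (log2 1.63 ± 0.17, adjusted p 3.80e-21). Macrophages exceeded dendritic cells 4.62-fold (log2 -2.21 ± 0.17 for dendritic cells over macrophages, adjusted p 3.59e-38). Exons of Cerkl on the opposite strand overlap those of Itga4, with authors' means of 724, 1027 and 301 in osteoclasts, macrophages and dendritic cells, in the same order of cell types as Itga4. The share of reads that either gene could lend the other was not tested.

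Itga6, a laminin receptor subunit, lies at chr2:71745616-71858416 on the plus strand. Its mean in the authors' deposited table was 3938 in osteoclasts against 9925 in macrophages and 654 in dendritic cells. It was 2.51-fold lower in osteoclasts than in macrophages (log2 -1.33 ± 0.16, adjusted p 1.65e-14) and 14.9-fold lower in dendritic cells than in macrophages (log2 -3.90 ± 0.16, adjusted p 2.13e-122). Osteoclasts were 5.96-fold above dendritic cells (log2 2.57 ± 0.16, adjusted p 2.06e-53). The dendritic cell libraries held 616, 868, 662 and 470 recovered normalised reads in a to d, all far under the osteoclast and macrophage means. The pseudogene model Gm29397, which shares 6.50% of its 50-base windows, had an authors' mean of 0 in all 3 cell types.

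Itga9, whose ligands include tenascin C, osteopontin and Vcam1, lies at chr9:118606690-118901003 on the plus strand. Recovered normalised reads were 321, 222, 236 and 258 in the osteoclast libraries a to d and 4.10, 4.08, 2.04 and 3.05 in the dendritic cell libraries, the last resting on 13 reads in all. The macrophage mean of 1124 had 2 possible sets of reads, in which the libraries ran from 459 to 2229 or from 877 to 1596. Under either set no macrophage library fell as low as an osteoclast library, and no dendritic cell library came near either group. By the authors' deposited fold changes Itga9 was 4.27-fold lower in osteoclasts than in macrophages (log2 -2.09 ± 0.22, adjusted p 1.19e-18), 61.1-fold above the dendritic cell level in osteoclasts (log2 5.93 ± 0.40, adjusted p 4.44e-47) and 261-fold lower in dendritic cells than in macrophages (log2 -8.03 ± 0.40, adjusted p 1.75e-86). Limma on the recovered reads also called it between osteoclasts and dendritic cells (log2 5.93 ± 0.28, adjusted p 9.87e-10), where 24.6% of 19705 genes were called. For Itga4, Itga6 and Itga9 the order was macrophages, osteoclasts, dendritic cells, with each step called.

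Itga2, the alpha subunit of a collagen receptor, lies at chr13:114833081-114932100 on the minus strand. It was higher in osteoclasts than in either other cell type, though 9 of 10 in rank per kilobase there, and nearly without reads in macrophages. Recovered normalised reads were 98.7, 195, 182 and 148 in osteoclast libraries a to d, 0, 1.95, 0 and 0 in macrophages, and 14.4, 3.06, 2.04 and 4.07 in dendritic cells. All osteoclast libraries lay above every library of the other cell types. The authors' deposited fold change over macrophages was 7.09 ± 0.69 on the log2 scale (adjusted p 6.01e-23) and over dendritic cells 4.56 ± 0.46 (adjusted p 1.70e-21). The macrophage libraries held only 2 reads of the gene against 625 in osteoclasts, a ratio of 321 with an exact 95% counting interval from 88.5 to 2657, which covers counting error alone. Limma on the recovered reads gave log2 fold changes of 6.86 ± 0.45 over macrophages (adjusted p 5.93e-07, with 11.7% of 19234 genes called) and 4.77 ± 0.44 over dendritic cells (adjusted p 9.06e-07). At such low reads the size depends on the pseudocount, and the log2 fold change over macrophages was 7.67 with 0.5 and 4.85 with 5 in place of 1. The stromal gene Dcn was also higher in osteoclasts, with 137, 322, 395 and 275 normalised reads in libraries a to d against at most 4.07 in any other library. The other stromal markers listed had authors' means in osteoclasts of only 0.25 (Cxcl12) to 8.48 (Pdgfrb). The part of stromal cells in the Itga2 level was not tested.

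Between dendritic cells and macrophages Itga2 was called in the authors' deposited table (log2 2.53 ± 0.72, adjusted p 0.00187) on 23 reads against 2, a ratio of 12.1 with an interval from 2.98 to 106. By limma it was log2 2.09 ± 0.59 with an adjusted p of 0.0209, where 19.4% of 20057 genes were called. With a pseudocount of 5 it was 0.88 with an adjusted p of 0.0480. The limma call was lost without dendritic cell library a, which held 14 of the 23 reads (adjusted p 0.0558), and without macrophage library a, c or d (adjusted p 0.0669, 0.0639 and 0.0617). Without dendritic cell library a the dendritic cell mean of Itga2 fell to 3.06. The 3 genes whose log2 reads ran most nearly parallel to Itga2 over the 12 libraries, among 6525 compared, were Lims2 (Pearson r 0.981), Kank1 (0.971) and Dclk1 (0.966). The libraries of a cell type share its treatment and are not independent points, so these values are a description.

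Itgae encodes CD103, which pairs with Itgb7, binds E-cadherin and marks a subset of tissue dendritic cells, and lies at chr11:73090583-73147446 on the plus strand. Recovered normalised reads were 674, 75.5, 325 and 68.2 in dendritic cell libraries a to d, 11.1, 18.0, 2.98 and 7.95 in osteoclasts, and 4.91, 5.85, 10.7 and 2.88 in macrophages. Every dendritic cell library lay above every other library, while osteoclasts and macrophages overlapped. By the deposited fold changes of the authors Itgae was 29.3-fold higher in dendritic cells than in macrophages (log2 4.87 ± 0.72, adjusted p 1.02e-10) and 19.5-fold higher than in osteoclasts (log2 -4.28 ± 0.71 for osteoclasts over dendritic cells, adjusted p 1.23e-08). Osteoclasts and macrophages were not called apart (log2 0.59 ± 0.73, adjusted p 0.610). Limma on the recovered reads gave 4.82 ± 0.63 for dendritic cells over macrophages (adjusted p 5.57e-05) and -4.28 ± 0.64 for osteoclasts over dendritic cells (adjusted p 0.000124).

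The dendritic cell libraries differed among themselves for Itgae. Library a held 657 of the 1117 reads, and without it the mean fell from 286 to 156 and the ratio to the macrophage mean from 46.9 to 25.6. In the same libraries a to d the 8 mast cell and basophil markers summed to 1368, 785, 906 and 821. Library a was highest for Gata2 (508, 135, 168 and 112), Kit and Hdc, but not for Cpa3, Mcpt8, Prss34, Ms4a2 or Fcer1a. The 2 dendritic cell markers with recovered reads there were Zbtb46, at 1215, 995, 1263 and 922, and Flt3, at 24.6, 6.12, 9.16 and 15.3. The part of any of these markers in the spread of Itgae was not tested. Its partner Itgb7 was called in none of the 3 comparisons of the authors' deposited table, with means of 1056, 1254 and 1597 in osteoclasts, macrophages and dendritic cells. Without library b the macrophage mean of Itgb7 was 748, below that of osteoclasts, and the macrophage ratios that follow use the mean of all 4 libraries. Per kilobase, Itgae was at 0.00573 of Itgb7 in osteoclasts against 0.00293 in macrophages and 0.108 in dendritic cells. Itga4, which also pairs with Itgb7, stood at 0.980, 1.23 and 0.208 of it. The E-cadherin gene Cdh1, ligand of the Itgae and Itgb7 pair, was likewise higher in dendritic cells than in macrophages in the authors' deposited table, at means of 4736 and 106 (log2 5.30 ± 0.39, adjusted p 3.83e-41). Over the 12 libraries the genes most parallel to Itgae were U2af1l4 (Pearson r 0.974), Ablim3 (0.973) and Mfsd2a (0.971).

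**Figure D4:**
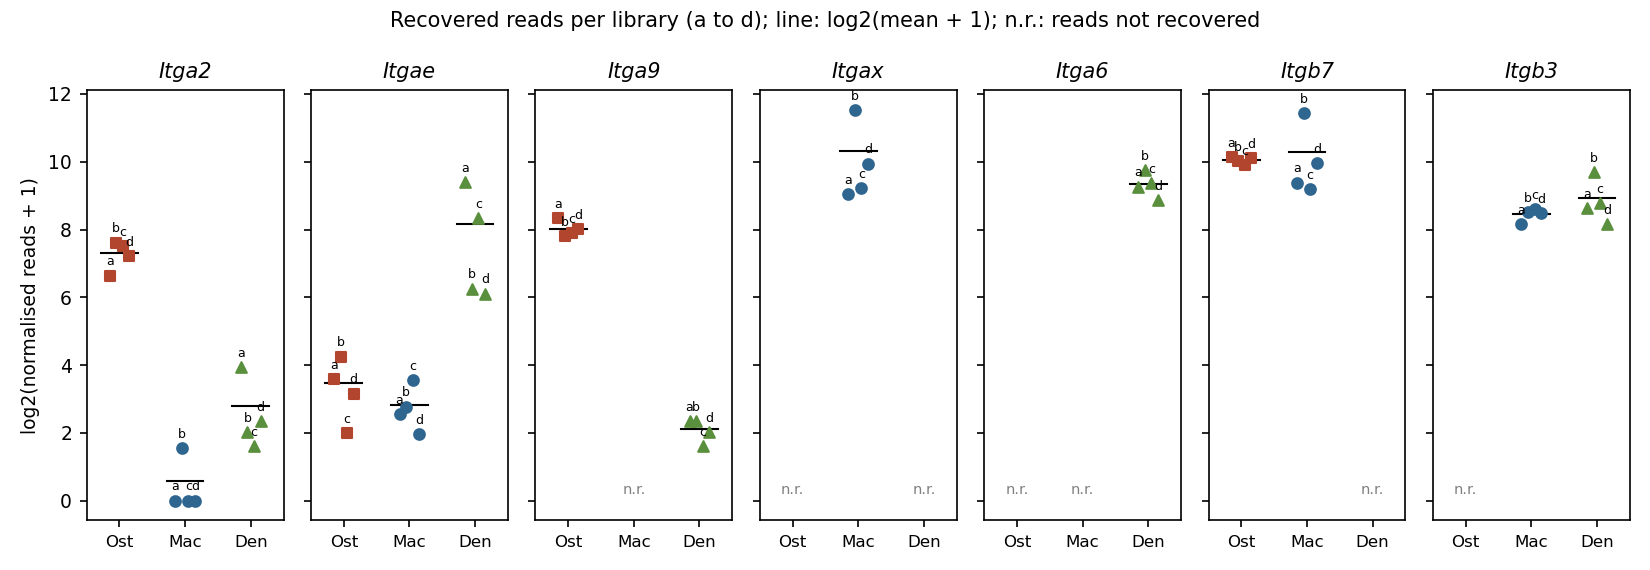
Recovered reads of single libraries, as log2(normalised reads + 1), for Itga2, Itgae, Itga9, Itgax and Itga6 and the beta subunits Itgb7 and Itgb3, in osteoclasts (squares), macrophages (circles) and dendritic cells (triangles), with libraries lettered a to d. The line is log2 of the mean plus 1, and groups marked n.r. had no single solution or a mean above 1500. The Itga2 osteoclast libraries (98.7 to 195 reads) and the Itgae dendritic cell libraries (68.2 to 674) lie above all others of their gene, and macrophage library b stands highest for both Itgax and Itgb7.

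Other genes of integrin function were counted from lists, with the share of all genes called beside each count. Of 13 activators, which switch integrins to the ligand-binding state, 11 had an adjusted p between osteoclasts and macrophages in the authors' deposited table, with 2 higher and 3 lower, against 29.3% of all genes called. The guanine exchange factor Rapgef1 was higher in osteoclasts (4809 against 2907, log2 0.72 ± 0.15) and the Rap1 activator Rasgrp2 was lower (4.98 against 71.4, log2 -3.60 ± 0.46). Of 13 tested against dendritic cells 3 were higher in osteoclasts and 2 lower, against 36.9% of all genes. The adaptor Fyb, known as ADAP, was higher (9119 against 1413, log2 2.68 ± 0.14) and the talin gene Tln2 lower (48.2 against 634, log2 -3.66 ± 0.28). Of 12 tested between dendritic cells and macrophages 2 were higher and 5 lower, against 36.7% of all genes. Of 9 inhibitors, 2 were lower and none higher in osteoclasts than in macrophages, with Rasa3 at -0.73 ± 0.14 and Nisch at -0.44 ± 0.13, against 29.3% of all genes called. Against dendritic cells 1 was higher in osteoclasts and 3 lower (36.9% of all genes), and between dendritic cells and macrophages 2 were higher and 3 lower (36.7%).

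Among 14 adaptors and kinases of adhesion sites, 5 were higher and 1 lower in osteoclasts than in macrophages in the authors' deposited table, beside 29.3% of all genes called. Lims2, a PINCH adaptor that binds integrin-linked kinase, was at 742 against 33.3 (log2 4.38 ± 0.31, adjusted p 6.13e-42), and Bcar1, the scaffold p130Cas, at 197 against 8.00 (log2 4.38 ± 0.47, adjusted p 1.54e-18). The kinase Ptk2b was lower (log2 -0.45 ± 0.13, adjusted p 0.00357). Against dendritic cells 6 were higher and 4 lower, beside 36.9% of all genes, and between dendritic cells and macrophages 8 were higher and 3 lower, beside 36.7%. Zyxin, encoded by Zyx, was at 28634 in dendritic cells against 2614 in osteoclasts and 2919 in macrophages.

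Among 32 ligand genes 25 had an adjusted p in each comparison of the authors' deposited table. In osteoclasts 6 were higher and 1 lower than in macrophages, so that 7 of 25 were called, near the 29.3% of all genes. Against dendritic cells 3 were higher and 10 lower in osteoclasts, beside 36.9% of all genes. Edil3, a secreted ligand of Itgav integrins, was at 2485 in osteoclasts against 729 in macrophages and 87.2 in dendritic cells (log2 1.74 ± 0.27 over macrophages, adjusted p 3.67e-09). Vcam1, ligand of the Itga4 and Itga9 integrins, was at 9.51, 11.2 and 220 in that order, so the cell type lowest in both receptors was the highest in the ligand. Dendritic cells were higher than macrophages in 10 ligand genes and lower in 2, beside 36.7% of all genes called. The medians over the ligands were -0.07, -0.84 and 0.90 on the log2 scale for osteoclasts over macrophages, osteoclasts over dendritic cells and dendritic cells over macrophages, beside -0.03, -0.05 and 0.05 over all genes.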

How the data were processed

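RNA from 12 libraries, 4 for each of 3 cell types, was read as single reads of 50 bases. The submitters' processing notes name DESeq2 2.13, Cufflinks 2.1.1, TopHat2, Bowtie2 and bcl2fastq, and the GRCm38 build. What each did, the annotation and any strand setting are not given in the sources analysed. The deposited table holds, per the file headers, a mean per cell type, a log2 fold change made by the authors, and a p-value and adjusted p-value deposited for each pair of cell types. That the means are counts divided by size factors and averaged over 4 libraries follows from their digits.

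The authors' adjusted p under 0.05 defined a call. Standard errors were worked back from each fold change and its p-value, which assumes a two-sided Wald test. The deposited fold changes of low genes lie closer to 0 than the ratios of means. So do those of Itgax over macrophages, with a deposited log2 of 4.94 for dendritic cells beside 5.34 for the ratio of means. Reads of single libraries were recovered by a search for whole reads matching the 15 digits of a mean of at most 1500. One solution was found for 17466 of 18657 means in osteoclasts, 18150 of 19258 in macrophages and 19363 of 19615 in dendritic cells, with size factors from 0.975 to 1.04. On simulated reads 922, 916 and 940 genes had 1 solution and 0 were wrong. Recovery at the higher means up to 1500, such as those of Itgax (1264) and Itgb7 (1254) in macrophages, was not tested in this way. Limma 3.58.1 with a trend was run on log2(normalised reads + 1) over all genes recovered in both cell types, with Benjamini-Hochberg adjustment. On simulated data 98% of 200 genes changed 4-fold and 11% of 200 changed 2-fold were called for osteoclasts against macrophages over 19234 genes. Of the calls in these runs 3.92% and 8.33% were false. The changed genes had no very low means, so reads as few as those of Itga2 in macrophages were not covered. P-values measure the spread between libraries. The SE implied by the authors' p-values was nearly the same in all 3 comparisons, 0.57 for Itgax and 0.28 for Itgal. The authors' error of a comparison may thus include the libraries of the cell type left out of it. Limma used only the libraries compared.

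All 10 members are named in every comparison. From each pathway list the text gives counts and up to 2 called genes of smallest p per direction, not all of them printed, and genes parallel to a member are the 3 of highest Pearson correlation where all 12 libraries were recovered. The markers Dcstamp, Ocstamp, Mmp9, Calcr, Oscar, Fcgr1, Zbtb46, Flt3, Lepr and Dcn were named after their values were seen. So were the single mast cell and basophil markers. The members and the lists were chosen with earlier results of these data known. Coordinates and exon lengths are from GENCODE M21 and promoters from RefSeq. Proteins and other promoters were not used here. Alternatives covered filters, scaling, thresholds, pseudocounts and single libraries.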

Additional observations from a re-analysis of the deposited data

Results flagged for a closer look

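Of 10 groups of 4 libraries with recovered reads of a member, 2 held a library far from the other 3, by Dixon's test of the gap to the nearest neighbour at the 95% level. Chance gives about 1 such group in 20 for continuous values, a rate that does not hold for counts near 0. Both groups concern Itga2 at very low reads, and where a single library holds all the reads, as in macrophages, the ratio passes by construction. In macrophages library b had 1.95 normalised reads, from 2 reads, and the other 3 had 0. In dendritic cells library a had 14.4 normalised reads, from 14 reads, and the other 3 had 2.04 to 4.07.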

How the results depend on the processing

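No fold change of the 10 genes reversed under any alternative run. The changed filters and thresholds kept the deposited fold change, so they could not reverse it. Of 208 values of the authors' calls under alternatives, 204 kept direction and call. Part of this holds by construction, since the log2 ratio of the authors' means was run with their adjusted p. The exceptions were Itgax between osteoclasts and macrophages at an adjusted p limit of 0.01 (log2 1.53), and, with a 2-fold limit, Itga4 between osteoclasts and macrophages (-0.58), Itga5 between osteoclasts and dendritic cells (0.97) and Itgam between dendritic cells and macrophages (0.95). With that limit 4, 8 and 7 of the 10 were called for osteoclasts over macrophages, osteoclasts over dendritic cells and dendritic cells over macrophages, while 2148 in place of 5216, 4350 in place of 7829 and 4180 in place of 7608 genes were called over all. Equal totals shifted all log2 fold changes by 0.05, 0.19 and -0.15 in that order. With recovered reads, 2 members were called between dendritic cells and macrophages, and 1 where genes with a mean under 10 in both were left out, since Itga2 was then not tested. Leaving out each library in turn gave 1 to 2 for that count. No paired analysis was possible because the deposited table carries no replicate number for any library. Spread between libraries is unknown for means above 1500, and very low reads limit Itga2 in macrophages and Itga9 in dendritic cells.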

Other observations

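Of the other 8 integrin alpha subunit genes, 7 were tested between osteoclasts and macrophages, with 1 lower and 0 higher, beside 29.3% of all genes called. Against dendritic cells 1 of 8 was higher in osteoclasts and 4 lower, beside 36.9%. Between dendritic cells and macrophages 4 of 8 were higher and 1 lower, beside 36.7%. Every one called was at least 2-fold apart. Several of these genes had low means, at which only a large fold can be called. Itga1, a collagen receptor subunit like Itga2, was like it called higher in dendritic cells than in macrophages but, unlike it, far lower in osteoclasts than in dendritic cells, with authors' means of 11.8 in osteoclasts against 11.7 in macrophages and 1886 in dendritic cells. Its deposited log2 fold change was 6.98 ± 0.48 for dendritic cells over macrophages (adjusted p 6.88e-47) and 0.01 ± 0.51 for osteoclasts over macrophages (adjusted p 1). Itga8, a receptor subunit for nephronectin, followed the order of Itga9, with authors' means of 103, 579 and 5.87. Its recovered normalised reads in libraries a to d were 193, 119, 52.7 and 46.7 in osteoclasts, 1032, 352, 681 and 253 in macrophages, and 5.13, 6.12, 6.11 and 6.10 in dendritic cells, so no 2 of these groups overlapped. It was lower in osteoclasts than in macrophages (log2 -2.38 ± 0.46, adjusted p 2.81e-06). The platelet integrin subunit Itga2b was at 5.50, 7.54 and 111. Over 7 megakaryocyte and platelet markers the authors' means summed to 623, 3374 and 3280, mostly from Pf4, with Gp9 at 0 in all 3 cell types. The part of platelets in the Itga2b level was not tested.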
